A study of Mus musculus with 4 samples.

Results

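The genes described here encode short noncoding RNAs that work inside ribonucleoprotein particles: Y RNAs, spliceosomal small nuclear RNAs (snRNAs), 7SK, 7SL and vault RNAs, and the RNA subunits of RNase P. They were taken from the snRNA, misc_RNA and ribozyme classes of the gene annotation in the deposited table. A gene was kept if it had at least 10 reads summed over the 4 libraries, so its total of reads chose it. This gave 79 genes of the 1969 in these classes and of 55573 in the table: 63 of 1385 snRNA genes, 13 of 562 misc_RNA genes and 3 of 22 ribozyme genes. At the edge of the choice, Gm24140 and Gm25140 each had 10 reads and were kept, and Gm22423, Gm22507, Gm23444, Gm23780 and Gm24936 each had 9 reads and were not. A further 119 genes of these classes had 1 to 9 reads, and the 79 genes held 99.9% of all reads of the classes. Of the 79 genes, 57 would also have reached 10 reads on the WT libraries alone and on the KO libraries alone, 12 reached it in WT only, 2 in KO only and 8 in neither group taken alone.

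The reads came from ribosome profiling (Ribo-seq) of mouse primary myoblasts, which grow out of muscle stem cells in culture, isolated from hind-limb muscles of 3-week-old mice and profiled at day 2 of proliferation in medium with FGF. Ribo-seq sequences RNA fragments that withstand RNase I and are recovered with ribosome complexes after cycloheximide has stopped elongation. The KO mice carried Pax7CreERT2/+;eIF5A f/f and received tamoxifen, so that the floxed eIF5A gene, which encodes a translation factor, is recombined in cells that express the muscle stem cell factor Pax7; cells without Pax7 keep the gene. The WT controls are given as Pax7CreERT2/+ in one place of the study's text and as Pax7+/+;eIF5A f/f in another, and those of the profiled cells only as littermates, so whether they shared the Cre driver is not settled here, and cycloheximide exposure is given as 10 minutes in the sample labels and 1 minute in the series labels. There were 2 libraries per group, and nothing states that they came from separate animals, so the spread between these libraries may be technical. The tests below combine that spread with one fitted over all genes, so a printed SE is not the scatter of a gene alone. Depth was 642429 to 704006 gene-assigned reads per library. Eif5a itself had 34.9 and 65.2 RPKM (reads per kilobase of gene, as deposited) in WT against 60.3 and 59.4 RPKM in the KO-labelled libraries, which does not separate the groups, so KO names the label of a library here and not a measured loss. All 7 myoblast markers examined had reads above a floor of 3 in at least 1 library. Their summed level was 195 to 248 RPKM in WT and 97.7 to 119 RPKM in the KO-labelled libraries. Of 5 muscle differentiation markers 4 were above the floor, and their sum set WT replicate 1 apart, at 224 RPKM against 48.6 in WT replicate 2 and 32.3 and 28.1 RPKM in the KO-labelled libraries. Myog, a transcription factor of myoblast differentiation, had 91.0 and 4.26 RPKM in WT against 0.737 and 1.66 RPKM in the KO-labelled libraries, the last 3 from at most 3 reads each. The 5 fibroblast markers were also above the floor, at 216 to 390 RPKM in WT and 279 to 666 RPKM in the KO-labelled libraries, as were the 4 endothelial markers, at 95.1 to 102 and 106 to 131 RPKM. Of 5 immune markers 4 were above the floor, at 28.1 to 38.5 and 23.9 to 24.6 RPKM, and Cd3e was at 0. Their part in the results below was not tested, and fewer cells of a type cannot be told apart from less RNA per cell.

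By way of background, Y RNAs are bound by the Ro60 protein and take part in RNA surveillance. U1, U2 and U5 snRNAs are carried by Sm-ring proteins and assemble on introns during splicing, where U1 pairs with the 5′ splice site, U2 with the branch point, and the U5 loop touches the exon ends. 7SL is the RNA scaffold of the signal recognition particle that takes secreted proteins to the endoplasmic reticulum, 7SK holds the elongation factor P-TEFb inactive, and the RNase P RNA cuts the 5′ leader from tRNA precursors. None of these RNAs is known as a messenger RNA. Many of them exist in the mouse genome as large families of near-identical copies and pseudogenes, most with only a predicted-gene symbol (Gm and a number). Genes with such symbols were placed in a family only by sequence, where they matched a named RNA at 80% identity or more over at least 60% of their length. Genes with a family symbol of their own were placed by that symbol. By symbol or sequence, 65 of the 79 genes were placed, and 14 were left unplaced.

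The sequences of the Y RNAs are shown because these genes held most reads. All sequences are those of the GENCODE vM21 annotation (GRCm38), written 5′ to 3′ as DNA. Rny1 lies on chromosome 6 at 47788069 to 47788180, minus strand, and Rny3 close to it at 47781624 to 47781725, plus strand. Gm26168 lies elsewhere on the chromosome, at 122623547 to 122623658, plus strand. No other annotated gene overlaps any of the 3 genes. Capitals in Rny1 and Rny3 mark bases that are the same in their alignment, and capitals in Gm26168 mark bases that differ from Rny1.
Rny1: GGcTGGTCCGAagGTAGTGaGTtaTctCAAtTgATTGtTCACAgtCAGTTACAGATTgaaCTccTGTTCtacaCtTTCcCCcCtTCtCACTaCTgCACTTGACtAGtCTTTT
Rny3: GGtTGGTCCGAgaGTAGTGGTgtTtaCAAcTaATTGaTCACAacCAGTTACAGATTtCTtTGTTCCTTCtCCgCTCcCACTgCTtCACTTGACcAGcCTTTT
Gm26168: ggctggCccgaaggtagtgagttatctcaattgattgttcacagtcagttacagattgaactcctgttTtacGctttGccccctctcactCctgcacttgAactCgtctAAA
Rny1 and Rny3 were identical at 72.3% of 112 aligned positions. The shared stretches include both ends of the RNA, which pair with each other in the known Y RNA fold. Gm26168 was 90.3% identical to Rny1, and its last 3 bases differ from the Rny1 end (T110A, T111A and T112A, counted from the first base of Rny1).

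For U1, the annotated gene Rnu1a1 is shown beside the members with most reads of the family, with the bases that pair with a 5′ splice site, ACTTACCTG, in capitals. This string was searched on the sense strand only.
Rnu1a1: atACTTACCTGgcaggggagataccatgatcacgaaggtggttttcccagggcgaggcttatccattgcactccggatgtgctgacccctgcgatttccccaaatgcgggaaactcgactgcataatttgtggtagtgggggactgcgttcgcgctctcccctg
Gm22513: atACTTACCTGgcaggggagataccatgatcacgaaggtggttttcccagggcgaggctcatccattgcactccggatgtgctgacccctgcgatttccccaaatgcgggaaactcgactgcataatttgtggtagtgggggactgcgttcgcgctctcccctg
Gm25587: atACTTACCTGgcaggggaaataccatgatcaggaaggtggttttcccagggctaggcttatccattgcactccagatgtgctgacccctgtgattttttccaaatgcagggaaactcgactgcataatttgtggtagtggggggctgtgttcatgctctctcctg
Gm22513 (chromosome 12, 54696782 to 54696945, plus strand) differed from Rnu1a1 by 1 substitution, T60C, and Gm25587 (chromosome 10, 105040273 to 105040438, plus strand) by 12 substitutions and 2 gap positions. The string was present in 15 of 33 U1 members (45.5%), in 28 of 52 U1 genes that were not members, and in 0.797% of the 1882 genes of the classes outside the U1 family. The U2 gene with most reads, Gm25360, is shown with GTAGTA, which pairs with the branch point, in capitals.
Gm25360: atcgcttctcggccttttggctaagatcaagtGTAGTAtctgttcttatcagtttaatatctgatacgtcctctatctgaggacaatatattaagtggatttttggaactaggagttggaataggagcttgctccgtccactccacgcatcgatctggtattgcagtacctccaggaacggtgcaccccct
GTAGTA was found in 6 of 8 U2 members, against 2.26% of the genes outside that family.

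The ribozyme class is shown by the first 120 bases of Rpph1 (chromosome 14, 50807449 to 50807767, minus strand), the RNase P RNA gene, and of Rprl3 (chromosome 8, 3803069 to 3803358, minus strand), an RNase P RNA-like gene. Capitals mark bases shared in their alignment.
Rpph1: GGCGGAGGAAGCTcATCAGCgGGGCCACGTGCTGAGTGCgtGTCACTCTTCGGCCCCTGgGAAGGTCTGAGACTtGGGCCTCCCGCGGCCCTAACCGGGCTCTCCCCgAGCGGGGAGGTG
Rprl3: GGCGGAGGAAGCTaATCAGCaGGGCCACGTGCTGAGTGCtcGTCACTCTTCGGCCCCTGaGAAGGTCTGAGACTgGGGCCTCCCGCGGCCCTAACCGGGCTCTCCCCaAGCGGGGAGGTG
Over the full length the 2 genes were 75.8% identical, and Rprl2 and Rprl3 were 92.1% identical to each other. Gm22970 (chromosome 14, 99773623 to 99773808, minus strand) is shown because it had the lowest log2 difference among members with at least 100 reads and could not be placed. Its closest named RNA was U2, at 77.9% identity over 55.9% of its length, which is below the limits used here. Capitals mark bases shared with the U2 gene Rnu2-10 over the full length.
Gm22970: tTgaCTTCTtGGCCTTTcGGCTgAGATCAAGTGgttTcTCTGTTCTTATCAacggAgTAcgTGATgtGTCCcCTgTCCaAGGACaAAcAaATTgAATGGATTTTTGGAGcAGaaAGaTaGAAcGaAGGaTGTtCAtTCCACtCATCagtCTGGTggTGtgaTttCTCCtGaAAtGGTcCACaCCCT

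Rny1 dominated the reads. It had 54201 and 98352 reads in WT replicates 1 and 2 and 91771 and 99740 reads in KO-labelled replicates 1 and 2. These were 86.4% of all member reads, and Rny1 ranked number 1 of the whole table by mean RPKM. By reads, WT replicate 1 was the lowest library and the other 3 lay close together, so the groups overlapped. The remaining 78 genes had 54169 reads, of which the U1 family held 60.8%. Of the 54169 reads, 60.1% lay in 5 genes, the U1 genes Gm25587, Gm22513, Gm22456 and Gm22739 and the U2 gene Gm25360.

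The classes were first compared by library as shares of all gene-assigned reads, with 95% Wilson intervals that cover counting error only. The snRNA members took 2.54% (2.50% to 2.58%) and 1.38% (1.35% to 1.41%) in the WT libraries and 1.30% (1.27% to 1.32%) and 1.49% (1.46% to 1.52%) in the KO-labelled libraries. WT replicate 1 stood above the other 3 libraries, and WT replicate 2 lay between the KO-labelled libraries. The misc_RNA members, mainly Rny1, took 8.75% (8.68% to 8.82%) and 15.6% (15.5% to 15.7%) in WT and 13.4% (13.3% to 13.5%) and 15.6% (15.5% to 15.6%) in the KO-labelled libraries. Here WT replicate 1 was the lowest, and the groups again overlapped. The ribozyme members took 0.111% (0.103% to 0.119%) and 0.0954% (0.0882% to 0.103%) in WT and 0.0294% (0.0257% to 0.0337%) and 0.0341% (0.0299% to 0.0389%) in the KO-labelled libraries. Of the 3 classes this was the only class whose shares did not overlap between the groups, with a mean 3.25 times as high in WT.

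**Figure D1:**
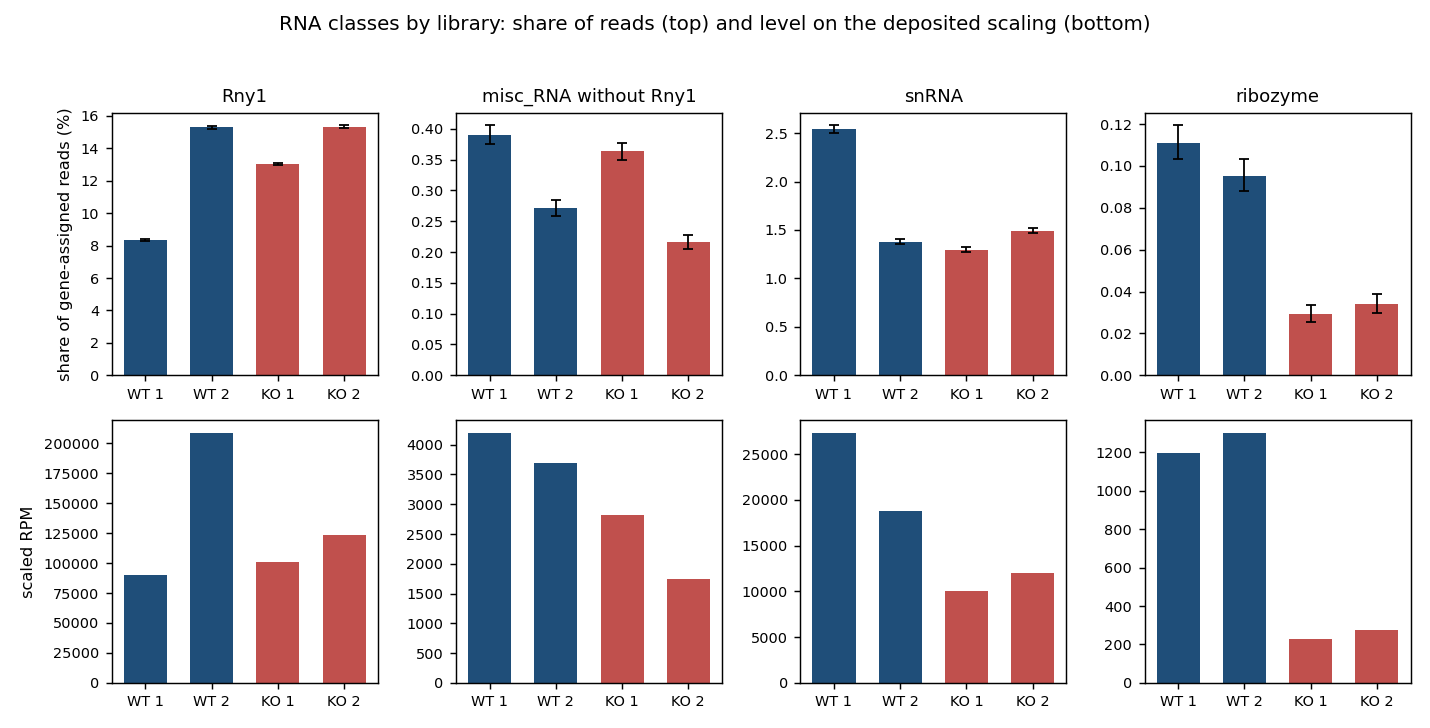
Bars give the share of gene-assigned reads (top row, percent, error bars are 95% Wilson intervals of counting error) and the scaled RPM (bottom row) of Rny1, the other misc_RNA members, the snRNA members and the ribozyme members in each of the 4 libraries. The ribozyme bars of the KO-labelled libraries, at 228 and 275 scaled RPM, lie below the WT bars, at 1194 and 1301, in both rows, whereas Rny1 overlaps between the groups in both rows.

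The deposited scaling sets the level of the typical gene equal across libraries. On that scale, given below as scaled RPM (reads divided by the denominator that the deposited RPKM imply), the snRNA and ribozyme totals were lower in the KO-labelled libraries and the misc_RNA total was not separated. The snRNA total was 27341 and 18808 scaled RPM in WT against 10054 and 12016 in the KO-labelled libraries, 2.09 times as high in WT by the mean, with no overlap. The ribozyme total was 1194 and 1301 in WT against 228 and 275 in the KO-labelled libraries, 4.96 times as high in WT. The misc_RNA total overlapped between the groups, and without Rny1 it was 4198 and 3697 in WT against 2821 and 1742 in the KO-labelled libraries, although as a share of all reads it overlapped, at 0.390% and 0.271% against 0.363% and 0.216%. On the log2 scale the differences, KO minus WT, were -1.04 for snRNA, -0.31 for misc_RNA, -0.83 for misc_RNA without Rny1 and -2.32 for ribozyme. As a description with no test, the same difference was -2.34 for miRNA genes, -1.58 for snoRNA and scaRNA genes, -1.66 for mitochondrial rRNA and 0.11 for protein-coding genes. The WT replicates were far apart for the first 2 of these, so that leaving out 1 WT library gave -3.50 to -1.19 for miRNA genes and -2.10 to -1.05 for snoRNA and scaRNA genes. Scaled to total reads instead, the median of all genes tested rose by 0.47 on the log2 scale and the differences were -0.43 for snRNA, 0.31 for misc_RNA and -1.70 for ribozyme. The misc_RNA value was then above 0 but still under that of the median gene.

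Gene by gene, the members mostly had lower values in the KO-labelled libraries, and none passed the adjusted threshold. In 55 of 79 members (69.6%) both KO values lay below both WT values, and in 0 of 79 both lay above, against 20.3% and 20.1% of the 11363 genes tested. The choice by total reads favours lower KO values in members that reached 10 reads only through WT, and 10 of the 12 such members were among the 55. Of the 57 members with at least 10 reads in each group, 42 (73.7%) were lower without overlap and 0 higher, with a median log2 difference of -1.38. All 79 members passed the filter on low values, a mean of at least 1 RPKM. At least 2-fold with an unadjusted p under 0.05 in limma was met by 29 members in the direction of lower and 0 in the direction of higher, against 4.29% and 2.67% of all genes tested. The 29 included 9 of the members that reached 10 reads only in WT, and 18 of the 57 with at least 10 reads in each group met the criterion. The 29 became 14 without WT replicate 1 and 19 without KO replicate 1. No member had an adjusted p under 0.05 in limma, where the smallest was 0.107 over all members and 0.471 over those with at least 10 reads in each group. Of all genes tested 0.0968% were called lower and 0.0088% higher by that rule. With voom on the recovered reads, 15 members passed the adjusted threshold, all with lower values, against 0.686% of all genes tested called lower by that method. Limma on log2(scaled reads + 1) called 6, all lower, against 0.132%. Of these calls 12 and 4 fell among the 57 members with at least 10 reads in each group. The median log2 difference was -1.44 over the members and 0.00026 over all genes tested. Among members with at least 100 reads, 31 of 43 did not overlap and were lower, with a median of -1.32, and among those with at least 40 reads 40 of 53 did.

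The same direction was seen in other short RNAs of the table. Of the genes with at least 10 reads, both KO values were below both WT values in 57 of 99 snoRNA and scaRNA genes (57.6%), 95 of 149 miRNA genes (63.8%) and 1835 of 9496 protein-coding genes (19.3%). Whether the member share differed from that of the other short RNAs was not tested. As shares of all reads, 33 of the 79 members (41.8%) had both KO values below both WT values and 1 had both above, against 7.87% and 41.4% of all genes tested. By the fold and p criterion on this scale 13 members were lower and 0 higher, against 1.48% and 13.9% of all genes tested. Of the 57 members with at least 10 reads in each group, 22 did not overlap and were lower on this scale and 9 met the criterion.

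**Figure D2:**
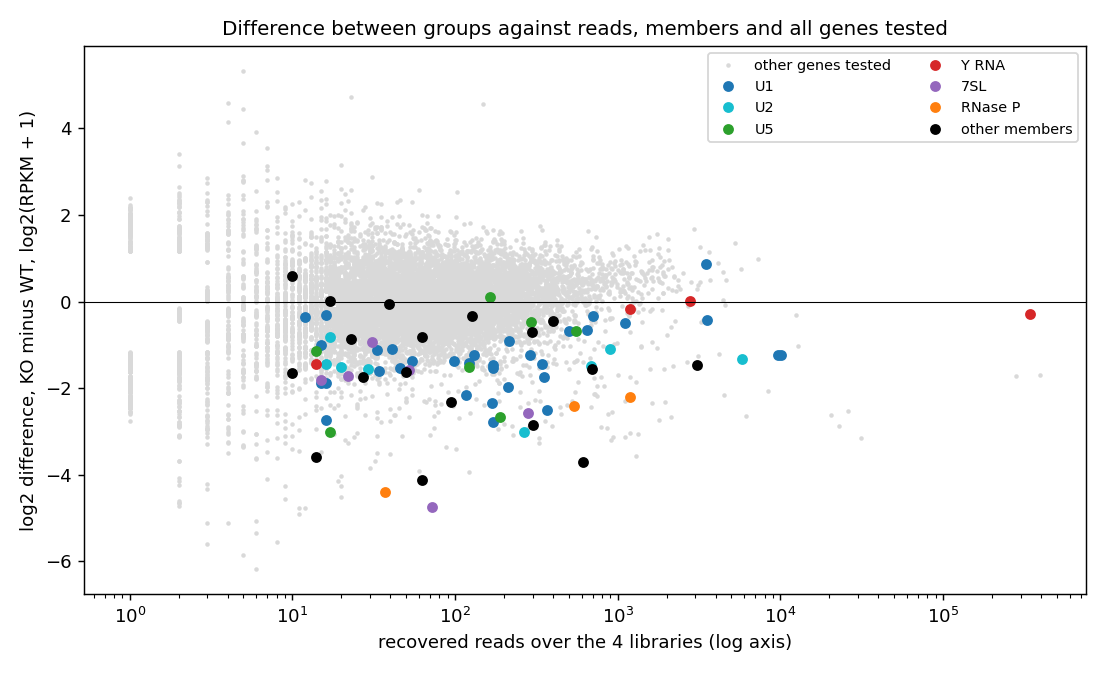
Each point is a gene, with the reads summed over the 4 libraries on the x axis (log scale) and the log2 difference of KO minus WT on the log2(RPKM + 1) scale on the y axis; grey points are the other genes tested and coloured points the 79 members by family. Of the members 74 lie below 0 and 5 above, and Rny1, at the far right, lies near 0 at -0.29.

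Replicates differed widely. The median absolute log2 difference between the WT replicates over the 43 members with at least 100 reads was 0.67, and between the KO-labelled replicates it was 0.58, against 1.32 between the groups. WT replicate 1 was above WT replicate 2 in 30 of these members, and the KO-labelled replicate 1 was above replicate 2 in 14. With 2 libraries against 2 an exact permutation test cannot give a p below 0.33, so no single gene can be separated by that test.

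Among the Y RNAs, the groups overlapped for the 3 members with most reads. The level of Rny1 was 89906 and 208755 scaled RPM in WT against 101182 and 123486 in the KO-labelled libraries. The fitted log2 difference was -0.29 ± 1.83 (SE) with an adjusted p of 0.969 in limma. Its sign turned without WT replicate 2, at 0.31, and with scaling to total reads, at 0.32. Rny3 had 545 and 381 reads in WT against 1510 and 364 in the KO-labelled libraries, or 8863 and 7928 RPKM against 16322 and 4418 RPKM. The high value lay in the KO-labelled replicate 1, and the low value in its replicate. This gave a log2 difference of 0.02 ± 0.96 (SE), and it was -0.92 without KO replicate 1 and 0.96 without KO replicate 2. Gm26168 had 156 and 355 reads in WT against 337 and 339 in the KO-labelled libraries, with a log2 difference of -0.16 ± 0.83 (SE). It followed Rny1 from library to library, at 0.288%, 0.361%, 0.367% and 0.340% of the Rny1 reads in WT replicates 1 and 2 and KO replicates 1 and 2. How reads matching both genes were assigned was not stated, and 51 of 85 windows of 28 bases in either gene were found in no other annotated gene. Gm22016, also placed with Rny1, had 6, 3, 3 and 2 reads in the same order, or 87.3, 55.9, 29.0 and 21.7 RPKM, and did not overlap between the groups in RPKM.

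Rny3 did not follow Rny1. It was 1.01% and 0.387% of the Rny1 reads in WT and 1.65% and 0.365% in the KO-labelled libraries, so replicate 1 was the higher library in each group. The ratio of U1 to U2 family reads had the same arrangement, at 626% and 223% in WT and 870% and 289% in the KO-labelled libraries. The ratio of Rprl3 to Rpph1 reads, at 63.0% and 31.8% in WT and 35.5% and 41.7% in the KO-labelled libraries, did not. The labels do not say that a replicate number marks a shared day, batch or animal.

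**Figure D3:**
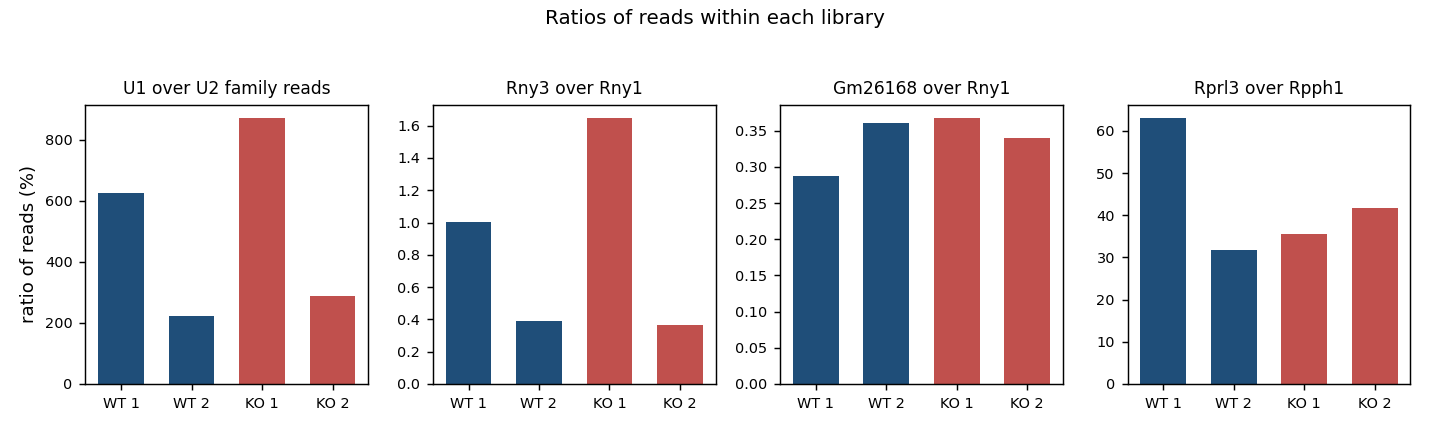
Bars give, for each of the 4 libraries, the ratio of U1 to U2 family reads, Rny3 to Rny1, Gm26168 to Rny1 and Rprl3 to Rpph1, in percent. The first 2 ratios are higher in replicate 1 of each group, at 626% and 870% for U1 to U2, while Gm26168 to Rny1 stays between 0.288% and 0.367%.

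All 3 RNase P genes were lower in both KO-labelled libraries than in both WT libraries, against 20.3% of all genes tested, and 1 of them, Rprl2, reached 10 reads only through WT. Rpph1, the RNA subunit that carries the catalytic core of RNase P, had 435 and 447 reads in WT against 152 and 156 in the KO-labelled libraries. In RPKM this was 2262 and 2974 against 525 and 605, and the KO values lay together well under the WT pair. The log2 difference was -2.20 ± 0.60 (SE), with an unadjusted p of 0.0112 and an adjusted p of 0.635 in limma. In voom the adjusted p was 0.0142. Rprl3 had 274 and 142 reads in WT against 54 and 65 in the KO-labelled libraries, 1567 and 1039 RPKM against 205 and 278 RPKM. The difference on the log2 scale was -2.41 ± 0.57 (SE), with an adjusted p of 0.567 in limma and 0.00342 in voom. Rprl2 had 11 and 24 reads in WT against 1 and 1 in the KO-labelled libraries. Both KO values were under the floor of 3 reads, and the ratio of pooled scaled reads, WT over KO, was 27.9 with an exact 95% counting interval from 7.18 to 239.8. As shares of total reads all 3 were also lower without overlap, against 7.87% of all genes tested. Of the 292 windows of Rpph1 265 were found in no other gene, with overlapping genes left out of the search. Rpph1 lies on the same strand as the gene Ccnb1ip1 and overlaps it, and Ccnb1ip1 had no reads. Rprl1, a further RNase P RNA-like gene, was at 0, as was Rmrp, the RNA of the related RNase MRP. Each of these has a further overlapping entry under the same symbol in the table, also at 0.

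The 7SL, 7SK and vault genes likewise had both KO values below both WT values. Rn7s2, a 7SL gene, had 158 and 64 reads in WT against 43 and 17 in the KO-labelled libraries. Its log2 difference was -2.57 ± 0.65 (SE), with an adjusted p of 0.608 in limma and 0.00418 in voom. No 28-base window of Rn7s2 was unique, since Rn7s1 has the identical sequence, and Rn7s1 was at 0. Rn7s6, 85.0% identical to Rn7s2, had 29 and 39 reads in WT against 1 and 3 in the KO-labelled libraries, both at or under the floor, and the WT over KO ratio was 27.1 with a counting interval from 10.1 to 102. Rn7s6 was one of the members that reached 10 reads only through WT. All 6 genes placed with 7SL had both KO values below both WT values, against 20.3% of all genes tested, and 3 of them, Rn7s6, Gm24514 and Gm24105, reached 10 reads only through WT. As shares of all reads 3 of the 6 did not overlap and were lower, against 7.87%. Rn7sk, the 7SK gene, had 1432 and 574 reads in WT against 537 and 519 in the KO-labelled libraries. In RPKM this was 7176 and 3681 against 1789 and 1941, with a log2 difference of -1.46 ± 0.73 (SE) and an adjusted p of 0.676 in limma. Leaving out WT replicate 1 gave -0.98. Vaultrc5, the vault RNA gene, had 162 and 292 reads in WT against 115 and 123 in the KO-labelled libraries. The fitted log2 difference was -1.55 ± 0.71 (SE), with an adjusted p of 0.676 in limma, and it was -0.95 without WT replicate 2.

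**Figure D4:**
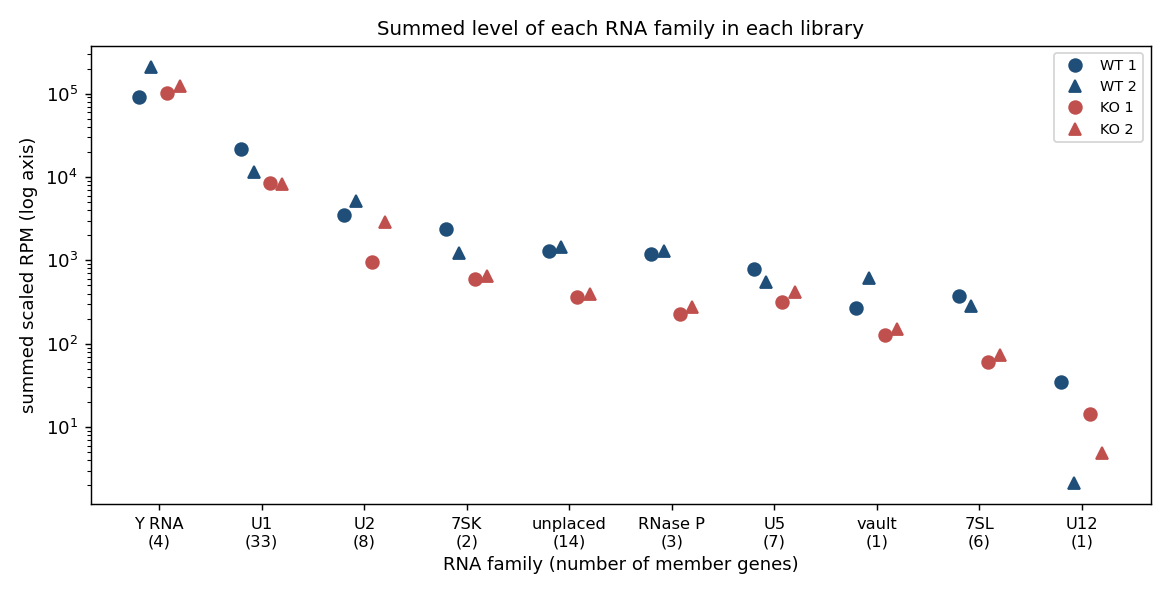
Points give the summed scaled RPM (log axis) of the member genes of each family in each library, with the number of genes in brackets below the name; blue marks WT, red the KO-labelled libraries, circles replicate 1 and triangles replicate 2. U1, U2, U5, RNase P, 7SL, 7SK, vault and the unplaced genes show both red points below both blue points on this scale. Y RNA and U12 points overlap. In reads before scaling the groups overlap for U1, at 13118 and 5469 in WT against 7614 and 6718 in the KO-labelled libraries, and also for U2 and U5.

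U1 had the most members of any family, 33, with 32919 reads, fewer than the Y RNAs. Both KO values lay below both WT values in 24 members, against 20.3% of all genes tested, and 9 overlapped. As shares of all reads 11 of the 33 were lower without overlap, against 7.87%, and 22 overlapped. Of the 33, 9 met the fold and p criterion, against 4.29% of all genes tested, and 3 did so with scaling to total reads, against 1.48%. Of the 27 with at least 10 reads in each group, 22 were lower without overlap and 7 met the criterion. The median log2 difference over the 33 was -1.38. Gm25587 had 4097 and 1996 reads in WT against 1888 and 2055 in the KO-labelled libraries, or 40939 and 25522 RPKM against 12540 and 15327 RPKM. This gave a log2 difference of -1.22 ± 0.93 (SE), with an adjusted p of 0.712 in limma. Gm22513 had 4300 and 1583 reads in WT against 2458 and 1301 in the KO-labelled libraries, with a log2 difference of -1.23 ± 0.98 (SE). For both genes the reads of WT replicate 2 lay between those of the KO-labelled libraries, and the shares of all reads overlapped.

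Other U1 members moved differently from library to library. Gm22739 had 1298 and 97 reads in WT against 1230 and 885 in the KO-labelled libraries, so WT replicate 2 alone stood apart. The difference on the log2 scale was 0.87 ± 1.24 (SE) and -0.82 without WT replicate 2. Gm22456 had 1131 and 534 reads in WT against 816 and 1077 in the KO-labelled libraries, and its groups overlapped. Gm22220 had a log2 difference of -2.78 ± 0.57 (SE), from 969 and 727 RPKM in WT to 88.8 and 166 RPKM in the KO-labelled libraries, with an adjusted p of 0.514 in limma and 0.00292 in voom. Gm24305, which differs from Rnu1a1 by 1 substitution (A26G), had 2124 and 828 RPKM in WT against 518 and 106 RPKM in the KO-labelled libraries. The spread in both groups was wide, and its log2 difference was -2.50 ± 0.94 (SE), moving from -3.64 without KO replicate 1 to -1.36 without KO replicate 2. Gm22042, Gm24032 and Gm24621 had log2 differences from -2.34 to -1.97, and none of these genes overlapped between the groups. The other 12 named U1 genes had log2 differences from -1.74 to -0.33. They were Gm22866, Gm25189, Gm26110, Gm25581, Gm23680, Gm23330, Gm26264, Gm23511, Gm23928, Gm23686, Gm22155 and Gm23510.

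The canonical U1 genes held no reads. Rnu1a1, Rnu1b1, Rnu1b2 and Rnu1b6 were at 0 in all 4 libraries, and each lacks any 28-base window that no other annotated gene holds. Of the 85 genes placed with U1, 15 had no unique window, and all 15 were at 0. Over the 3 classes 136 genes had no unique window, of which 133 were at 0 and 3 had reads, while 195 of 1831 genes with at least 1 unique window had a read. Of U6, 669 genes were in the table, of which 6 had a read and none was a member. Of the 669, 111 had no unique window and all of those were at 0, but most U6 genes at 0 had a unique window. Rnu11, Rnu7 and Terc, the U11, U7 and telomerase RNA genes, were also at 0. Of their windows 85 of 107, 25 of 35 and 396 of 396 were unique. Gm22513, the copy that differs from Rnu1a1 by 1 base, had 17 unique windows of 137 and 9642 reads. How the authors treated reads that match several places was not stated, so reads of U1, U2 and U5 copies may be split between members, and the values of single copies are uncertain. Among 39 members with at least 80% unique windows, 27 did not overlap and were lower, against 20.3% of all genes tested. An annotated gene overlapped 26 of the 79 members on the same strand and 33 on either strand, and whether reads were counted by strand was not stated.

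Of the U2 genes, 6 of 8 members had both KO values below both WT values, against 20.3% of all genes tested, and 4 of 8 did so as shares of all reads, against 7.87%. Of the 5 with at least 10 reads in each group, 4 had both KO values below. Gm25360 had 1556 and 1825 reads in WT against 655 and 1788 in the KO-labelled libraries, or 13513 and 20281 RPKM against 3781 and 11590 RPKM. The KO-labelled replicate 1 was the lowest, and KO replicate 2 lay just under WT replicate 1. Its log2 difference was -1.32 ± 0.95 (SE), with an adjusted p of 0.706 in limma, and -0.51 without KO replicate 1. Gm26316, which differs from the U2 gene Rnu2-10 at 1 position, had 112 and 96 reads in WT against 9 and 47 in the KO-labelled libraries. The fitted log2 difference was -3.0 ± 0.89 (SE), with an adjusted p of 0.650 in limma. It was -1.74 without KO replicate 1 and -4.27 without KO replicate 2. Gm24763 and Gm22973 had log2 differences of -1.50 and -1.09, the latter with overlapping groups, and these were -0.80 and -0.33 without KO replicate 1. Rnu2-10 itself was at 0 and had no unique window.

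Of the U5 genes, 3 of 7 members were lower without overlap, against 20.3% of all genes tested, and 2 of 7 were so as shares of all reads, against 7.87%. Rnu5g, the U5 gene with a symbol of its own, had 76 and 68 reads in WT against 9 and 36 in the KO-labelled libraries. In RPKM this was 1087 and 1244 against 85.5 and 384, and the KO replicates differed from each other more than the WT replicates did. The log2 difference was -2.67 ± 0.82 (SE), with an adjusted p of 0.650 in limma and 0.00541 in voom. It was -1.60 without KO replicate 1 and -3.75 without KO replicate 2. Gm25313, a U5 copy in the same stretch of the chromosome, had 152 and 116 reads in WT against 92 and 196 in the KO-labelled libraries, with a log2 difference of -0.67 ± 0.72 (SE) that was -0.04 without KO replicate 1. Rnu5g and Gm25313 each had 12 of 89 windows that no other gene holds, overlapping genes aside, so reads may be shared between them. Gm25099, Gm22265 and Gm23143 had log2 differences of -0.46, 0.12 and -1.52, and only the last of these did not overlap. Rnu12, the U12 gene of the minor spliceosome, had 21 and 1 reads in WT against 13 and 4 in the KO-labelled libraries. This gave a log2 difference of -0.05 ± 1.30 (SE), and the groups overlapped, with WT replicate 1 the highest library and WT replicate 2 the lowest.

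**Figure D5:**
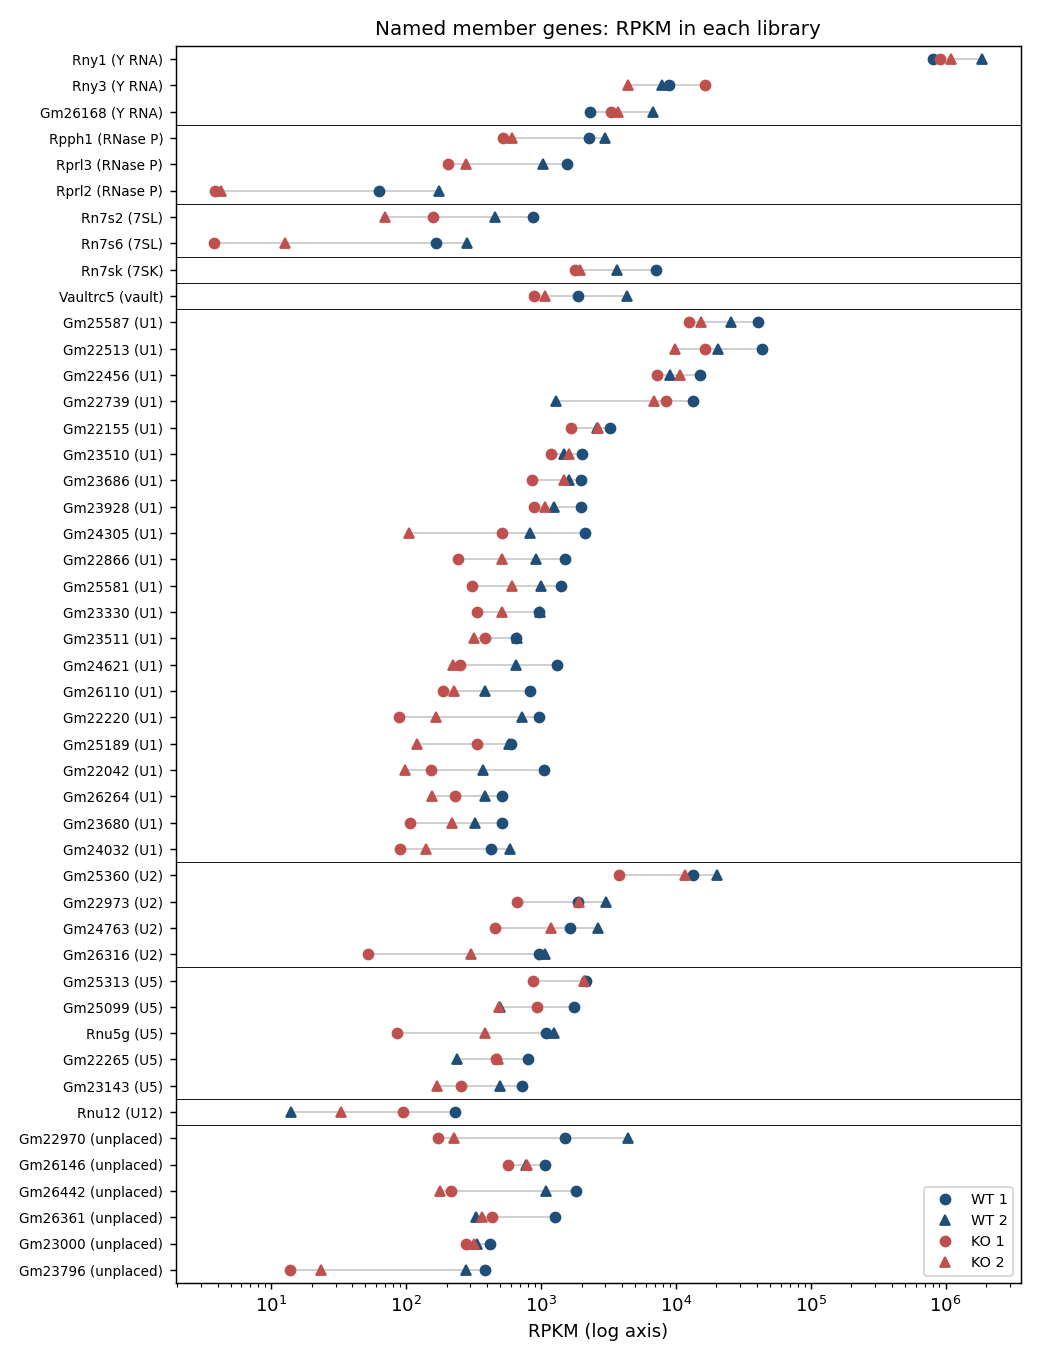
Each line is a named gene with its RPKM in each of the 4 libraries (log axis), grouped by family; blue marks WT, red the KO-labelled libraries, circles replicate 1 and triangles replicate 2. Rpph1, Rprl3, Rprl2, Rn7s2, Rn7s6, Gm22970 and Gm23796 show red points well to the left of the blue points, while Rny1, Rny3 and Gm26168 show them mixed.

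The unplaced genes, all of the snRNA class, included Gm22970 and Gm23796. Gm22970 had 168 and 384 reads in WT against 29 and 34 in the KO-labelled libraries, or 1498 and 4382 RPKM against 172 and 226 RPKM. Both KO values were far below both WT values, although the WT replicates also differed. The difference on the log2 scale was -3.69 ± 0.72 (SE), with an unadjusted p of 0.00232 and an adjusted p of 0.471 in limma, and it was -2.92 without WT replicate 2. In voom the adjusted p was 8.8e-05. Each of its 159 windows was found in no other annotated gene, with overlapping genes left out of the search. Gm22970 lies on the same strand within Gm37093, which had no reads, and whether Gm37093 holds these windows was not examined. Gm26442 had 169 and 79 reads in WT against 30 and 22 in the KO-labelled libraries, with a log2 difference of -2.85 ± 0.58 (SE). Gm23796 had 37 and 21 reads in WT against 2 and 3 in the KO-labelled libraries, at or under the floor, with a WT over KO ratio of 18.5 and a counting interval from 7.50 to 59.2. Gm23796 reached 10 reads only through WT. Gm26146 and Gm26361 overlapped between the groups, and Gm23000 did not but had a log2 difference of only -0.33. Of the 14 unplaced genes 9 were lower without overlap, against 20.3% of all genes tested, and as shares of all reads 6 were lower and 1 higher, against 7.87% and 41.4%. The 9 included Gm23796, Gm24407 and Gm23239, which reached 10 reads only through WT, and of the 9 unplaced genes with at least 10 reads in each group 6 were lower.

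The protein partners of these RNAs were examined in the same fit, from lists of 104 symbols of which 94 were tested. The partners had 0 genes with an adjusted p under 0.05 in limma and 4 of 94 with an unadjusted p under 0.05, against 7.32% of all genes tested. In 33 of the 94 genes (35.1%) both KO values were above both WT values, and in 13 (13.8%) both were below, against 20.1% and 20.3% of all genes tested. The counts of the single lists below can be read against the same 2 shares. The median log2 difference was 0.34. For Y RNAs, Ro60 had 2.78 and 2.67 RPKM in WT against 3.81 and 3.37 RPKM in the KO-labelled libraries, with a log2 difference of 0.30 ± 0.37 (SE). Ssb, the La protein that binds the 3′ ends of polymerase III transcripts, had a log2 difference of 0.57 ± 0.45 (SE). Of 14 U1 and U2 proteins 9 were higher without overlap and 0 were lower, with a median of 0.68, and Snrnp70, the U1 70K protein, had 0.87 ± 0.40 (SE). In the Sm ring 3 of 7 were higher and 0 were lower, led by Snrpe at 1.39 ± 0.38 (SE). For RNase P the tested proteins split, with 4 of 9 lower and 2 higher, Rpp30 at 1.39 ± 0.38 (SE) and Rpp21 at -1.26 ± 0.38 (SE). Rpp21 had only 5 and 3 reads in WT against 2 and 2 in the KO-labelled libraries, the latter under the floor of 3 reads. The polymerase III list had 4 of 12 lower and 1 higher, with a median of -0.20. The 3 vault proteins, Mvp, Parp4 and Tep1, were each higher without overlap, with log2 differences of 0.39 to 0.45. The median was 0.03 over 6 proteins of the 7SK particle, 0.09 over 6 of the signal recognition particle, 0.59 over the 7 of the Lsm ring, 0.40 over 12 of snRNA assembly and export and 0.16 over 13 of snRNA transcription and 3′ end formation. Whether any list differed from the other genes was not tested.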

How the data were processed

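Ribo-seq libraries of 2 WT and 2 KO samples were analysed from a table that the authors deposited as RPKM. The authors removed rRNA and tRNA reads, aligned the rest to mm10 with Tophat2 and counted them per gene with HTSeq on Ensembl models; the handling of strand and of reads matching several places is not given in the sources used here. RPKM were multiplied by gene length and divided by the smallest non-zero product of each library, which was taken as a single read. This gave whole reads for 100% of the values (tolerance 0.01). Depth was 648386 and 642429 reads in WT and 704006 and 650210 in KO. No identifiers mark molecules, so intervals and the floor of 3 reads cover counting error only.

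Values were fitted with limma 3.58.1 (R 4.3.3; lmFit, eBayes with trend, two-sided, Benjamini-Hochberg) on log2(RPKM + 1) over the 11363 genes whose RPKM averaged at least 1, with the group as the only term. Log2 differences on this scale understate changes of low genes. Files were checked, and this main fit was tested on simulated data. The alternative fits, voom and limma on log2(scaled reads + 1) among them, were not tested in this way. Families were placed with blastn 2.17.0. Uniqueness was counted over windows of 28 bases in GENCODE vM21 transcripts, on either strand. Genes that overlap in the genome did not count as other genes, and sequence outside these transcripts was not searched.

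Named were Rny1 and Rny3, every ribozyme gene, genes with a family symbol, genes with at least 100 reads, genes with an adjusted p under 0.05, and the 3 largest increases and decreases among genes whose groups did not overlap; any other gene named was picked with its values in view. The genes and lists were chosen with earlier results of these data known. Alternatives covered pseudocount, filters, scaling, the replicate block, voom and leaving out libraries.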

Additional observations from a re-analysis of the deposited data

How the results depend on the processing

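The number of members with non-overlapping groups, 55, stayed within 1.5 times under all alternatives except scaling to total reads, where it was 34. The number past the fold and p criterion, 29, was 13 with scaling to total reads, 19 of 53 with at least 40 reads, 18 of 57 with at least 10 reads in each group (chosen after seeing the data), and 14 to 23 on leaving out a library, the lowest without WT replicate 1; it was 19 without KO replicate 1. No member passed the adjusted threshold, except 15 in voom on recovered reads and 6 in limma on log2(scaled reads + 1). The replicate block gave 0, 32 and 55 for the 3 counts; the correlation of same-numbered deviations was 0.057 over all genes tested and 0.395 over members, the labels do not pair the samples, and 2 pairs do not allow a fuller check. Where a library was left out, the lone library was assumed to vary like the other group.

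Class totals moved by more than the replicate spread with scaling to total reads, to -0.43 for snRNA, 0.31 for misc_RNA and -1.70 for ribozyme, and to -2.54 for ribozyme without Rpph1. Leaving out a library gave -1.31 to -0.77 for snRNA, -0.90 to 0.28 for misc_RNA and -2.45 to -2.18 for ribozyme. Of 47 named genes, 9 reversed with scaling to total reads, where the median gene rose by 0.47: Rny1 (0.32), Gm26168 (0.45), Rnu12 (0.54), Gm22155 (0.13), Gm22456 (0.20), Gm23000 (0.29), Gm23510 (0.29), Gm25099 (0.15) and Gm26146 (0.17). Rny3 reversed with scaling to protein-coding reads (-0.10). On leaving out a library the range was -0.90 to 0.31 for Rny1, -0.92 to 0.96 for Rny3, -0.93 to 0.61 for Gm26168, -2.02 to 1.92 for Rnu12, -0.76 to 0.99 for Gm22265, -0.82 to 2.56 for Gm22739, -1.38 to 0.45 for Gm25099 and -1.67 to 0.27 for Gm26361. Of the 47 named genes, 21 moved by more than 1.5-fold on leaving out 1 library; beside those above, the ranges were -3.08 to -1.60 for Gm22042, -4.47 to -2.92 for Gm22970, -1.85 to -0.33 for Gm22973, -3.64 to -1.36 for Gm24305, -2.19 to -0.80 for Gm24763, -2.28 to -0.81 for Gm25189, -1.30 to -0.04 for Gm25313, -2.13 to -0.51 for Gm25360, -4.27 to -1.74 for Gm26316, -5.51 to -3.98 for Rn7s6, -3.75 to -1.60 for Rnu5g, -5.13 to -3.67 for Rprl2 and -2.16 to -0.95 for Vaultrc5. The cause was not tested. Depth limits members with under 40 reads most, since 3 reads could not be told from 0.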
